A study of Homo sapiens with 6 samples.

Results

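ZP4, PNLIPRP3, SPINK1, PKIA, HCAR3, LRFN5 and PAX8-AS1 are 7 genes whose probe sets were high after H3.Y siRNA. When H3.X and H3.Y were targeted together, they differed from their control level by -0.83 to 1.02 log2 units. They were chosen on those differences, by their symbols, from the largest increases after H3.Y siRNA. All 7 were found, each on 1 probe set with exactly 1 gene symbol, among 18417 genes named in this way and 33297 probe sets in all. The cells were U2OS, an established human osteosarcoma line, grown in DMEM with serum, given siRNA in 2 rounds of transfection and collected on day 4. Total RNA went onto 6 arrays in 3 groups of 2, namely H3.Y siRNA, siRNA against H3.X and H3.Y (the combined siRNA below), and luciferase siRNA as the control. All 3 groups were thus transfected cells, and no untransfected cells were used here. The labels do not say whether the combined group received a pool or 1 siRNA that hits both genes, and 0 probe sets were named for either target (H3Y1 and H3Y2), so the loss of the targets was not read here. The labels call arrays of a group biological replicates but do not describe separate cultures, so errors and p-values cover no more than the array-to-array spread seen here, and 2 arrays per group limit the precision of every value.

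H3.X and H3.Y are primate-specific variants of histone H3, proteins that can take the place of the canonical H3 in nucleosomes. The 7 genes are not known as members of a common pathway, and they are best known from tissues other than bone. ZP4 is a glycoprotein of the zona pellucida, the coat of the egg. PNLIPRP3 is a relative of the pancreatic lipases that digest dietary fat. SPINK1 is a secreted inhibitor that keeps trypsin in check in the pancreas, and it is also known as an acute phase protein and from several tumours. HCAR3 is a receptor on fat cells and white blood cells that couples to inhibitory G proteins and is activated by hydroxylated fatty acids. LRFN5 is a synaptic adhesion protein of neurons. PKIA is a small protein that binds and blocks the catalytic subunit of protein kinase A, the kinase that cyclic AMP activates. PAX8-AS1 is a long noncoding RNA transcribed from the opposite strand of PAX8, a transcription factor of thyroid and kidney development.

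Promoter windows, from 250 bases before to 50 after an annotated start of the gene, were matched for 4 of the 7 genes (5 windows). A window of each of these 4 genes is shown because these genes moved together on the arrays, with the motifs searched in capitals. They are PNLIPRP3 at chr10:116427597-116427896 (plus strand), SPINK1 at chr5:147831622-147831921 (minus strand), LRFN5 at chr14:41606626-41606925 (plus strand) and PAX8-AS1 at chr2:113235277-113235576 (plus strand), all from RefSeq in GRCh38.p14 and written 5′ to 3′. The SPINK1 window lies inside the gene's annotated span, given below, and not at its end, so it belongs to a start within the span, while the other 3 windows shown sit at the start of the span.
PNLIPRP3: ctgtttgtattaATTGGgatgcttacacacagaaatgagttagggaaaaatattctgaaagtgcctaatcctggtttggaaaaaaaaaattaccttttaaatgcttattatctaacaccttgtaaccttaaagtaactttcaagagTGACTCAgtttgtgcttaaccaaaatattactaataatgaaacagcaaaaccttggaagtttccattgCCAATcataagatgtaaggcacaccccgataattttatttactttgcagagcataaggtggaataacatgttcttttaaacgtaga
SPINK1: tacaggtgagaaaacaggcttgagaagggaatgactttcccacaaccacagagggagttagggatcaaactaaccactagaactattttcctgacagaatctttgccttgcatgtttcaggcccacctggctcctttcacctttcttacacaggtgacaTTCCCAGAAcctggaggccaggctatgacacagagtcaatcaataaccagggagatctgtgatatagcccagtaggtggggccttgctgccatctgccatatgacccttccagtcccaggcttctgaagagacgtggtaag
LRFN5: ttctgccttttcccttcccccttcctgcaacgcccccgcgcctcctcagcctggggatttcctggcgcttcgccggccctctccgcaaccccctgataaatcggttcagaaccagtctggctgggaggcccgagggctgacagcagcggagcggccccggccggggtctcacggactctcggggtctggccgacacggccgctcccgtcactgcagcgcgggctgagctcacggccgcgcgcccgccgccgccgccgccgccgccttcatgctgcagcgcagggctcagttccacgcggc
PAX8-AS1: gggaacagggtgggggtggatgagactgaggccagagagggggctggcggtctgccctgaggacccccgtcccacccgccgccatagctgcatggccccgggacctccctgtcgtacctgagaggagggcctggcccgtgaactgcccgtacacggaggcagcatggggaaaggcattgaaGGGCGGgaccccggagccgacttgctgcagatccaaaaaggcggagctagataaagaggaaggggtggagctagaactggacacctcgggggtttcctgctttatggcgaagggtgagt
The windows differed widely in base composition. The PNLIPRP3 window held 32.3% G and C and the SPINK1 window 49.3%, against 72.3% for LRFN5 and 64.3% for PAX8-AS1, where the median over all 35116 windows was 58.7%. A second PAX8-AS1 window, at chr2:113236019-113236318, held 76.7%.

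The 7 motifs searched on both strands were shared by no pair of the genes. TGANTCA, the letters of AP-1 sites, was found in PNLIPRP3 at bases -104 to -98 from the start, as it was in 7.71% of all windows. CCAAT was found in the same window at 2 places, on the minus strand at -238 and on the plus strand at -36, against 34.6% of all windows with at least 1 match. SPINK1 held TTCNNNGAA, the letters of STAT sites, at -91 to -83 (7.66% of all windows). PAX8-AS1 held GGGCGG, the GC box, at -69 to -64 in the window shown (45% of all windows). The letters TATAAA, TGACGTCA and CACGTG were found in 0 of the 5 windows, against 11.5%, 1.85% and 7.26% of all windows. None of the matches overlapped another motif, and the LRFN5 window and the second PAX8-AS1 window held 0 matches.

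The genes lie on 7 different chromosomes, so no locus is shared among them. RefSeq places ZP4 on chromosome 1 (237882404 to 237890922, GRCh38.p14), PAX8-AS1 on chromosome 2 (113235527 to 113267023), SPINK1 on chromosome 5 (147824582 to 147839196), PKIA on chromosome 8 (78516340 to 78605267), PNLIPRP3 on chromosome 10 (116427847 to 116477957), HCAR3 on chromosome 12 (122714756 to 122716811) and LRFN5 on chromosome 14 (41606876 to 41904549). Their annotated spans run from 2056 bp for HCAR3 to 297674 bp for LRFN5.

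Levels are given in log2 units as deposited, in which 1 unit is a 2-fold step. Array medians lay between 5.10 and 5.14. The files hold no detection calls, so a floor was set for each array at its 5th percentile over all probe sets, which lay between 1.73 and 1.89. The 381 probe sets of olfactory receptors, genes of the nasal lining not known to be active in this line, gave a second mark, with 95% of them below 4.54 to 4.75 depending on the array. As a check of the labelled line, vimentin (VIM), the filament protein of mesenchymal cells, read 10.93 and 10.92 after H3.Y siRNA, 10.81 and 10.80 after combined siRNA and 10.95 and 10.69 after luciferase siRNA. Of 9 measured mesenchymal and osteoblast markers 0 passed between H3.Y and luciferase siRNA, with a median difference of 0.02, and with the matrix genes COL1A1 at -0.52 ± 0.17 and SPARC at -0.29 ± 0.18. Between H3.Y and combined siRNA 3 of the 9 were lower, namely COL1A1 at -2.10 ± 0.17 (limma adjusted p = 0.0058), SPARC at -1.31 ± 0.18 (limma adjusted p = 0.019) and the cadherin CDH2 at -1.08 ± 0.18 (limma adjusted p = 0.028), and COL1A1 was higher after combined than after luciferase siRNA by 1.58 ± 0.17 (limma adjusted p = 0.019). The part of these changes in the results below was not tested. Levels of different genes come from different probes and are not set against each other below. Where a gene lay below the olfactory receptor mark on an array of a group, its log2 differences from that group compare readings that cannot be told apart from background, and no fold is given. In RNA from whole cultures, a change in the number of cells that express a gene and a change in RNA per cell cannot be told apart.

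ZP4, PNLIPRP3 and SPINK1 encode secreted or extracellular proteins. ZP4 read 8.96 and 7.55 after H3.Y siRNA, 4.27 and 4.91 after combined siRNA, and 3.55 and 3.59 after luciferase siRNA. Its H3.Y arrays were thus far above the rest, and its combined arrays lay between the other groups, above both luciferase arrays. The fitted difference between H3.Y and luciferase siRNA was 4.68 ± 0.45 log2 units (SE of the limma fit, n = 2 per group), and that between combined and luciferase siRNA was 1.02 ± 0.45. PNLIPRP3 read 8.01 and 6.86 after H3.Y siRNA, 3.50 and 3.27 after combined siRNA, and 4.01 and 3.83 after luciferase siRNA. Here the combined arrays were below both luciferase arrays, opposite to ZP4. PNLIPRP3 read 3.51 ± 0.35 log2 units higher after H3.Y siRNA than after luciferase siRNA and 4.05 ± 0.35 higher than after combined siRNA, both of which were below the mark. SPINK1 read 6.32 and 5.62 after H3.Y siRNA, 3.36 and 3.35 after combined siRNA, and 3.01 and 3.34 after luciferase siRNA. Its combined and luciferase values differed by 0.18 ± 0.25, less than their error, while H3.Y siRNA stood 2.80 ± 0.25 log2 units above luciferase siRNA.

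HCAR3, the receptor, read 5.47 and 5.17 after H3.Y siRNA, 3.20 and 3.31 after combined siRNA, and 3.07 and 2.97 after luciferase siRNA. The replicates were close in each group, and H3.Y siRNA exceeded luciferase siRNA by 2.30 ± 0.15 log2 units. LRFN5, the adhesion protein, read 7.06 and 6.32 after H3.Y siRNA, 4.54 and 4.58 after combined siRNA, and 4.71 and 4.51 after luciferase siRNA. The last 2 groups overlapped and differed by -0.05 ± 0.25, whereas H3.Y siRNA exceeded luciferase siRNA by 2.08 ± 0.25 log2 units.

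PKIA, the kinase inhibitor, was the 1 gene of the 7 above the olfactory receptor mark on all 6 arrays. It read 9.26 and 8.55 after H3.Y siRNA, 5.33 and 5.35 after combined siRNA, and 6.05 and 6.31 after luciferase siRNA. The 3 groups were separate, with the combined siRNA lowest. H3.Y siRNA exceeded luciferase siRNA by 2.73 ± 0.24 log2 units (6.62-fold) and combined siRNA by 3.56 ± 0.24 (11.8-fold), since the combined siRNA lay 0.83 ± 0.24 below luciferase siRNA. PAX8-AS1, the noncoding RNA, read 6.58 and 5.98 after H3.Y siRNA, 3.72 and 4.08 after combined siRNA, and 4.09 and 4.02 after luciferase siRNA. Its combined and luciferase arrays overlapped, and H3.Y siRNA exceeded luciferase siRNA by 2.22 ± 0.23 log2 units.

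**Figure D1:**
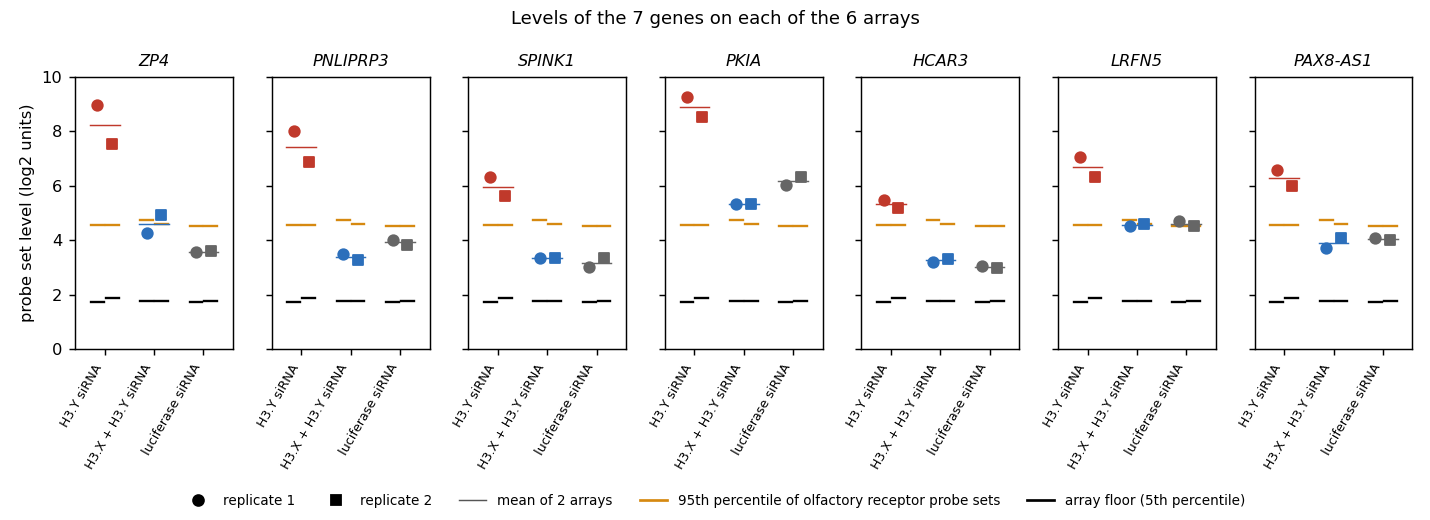
Level of each of the 7 genes (log2 units, vertical axis) on the 6 arrays, with H3.Y siRNA left, combined siRNA in the middle and luciferase siRNA right, circles for replicate 1, squares for replicate 2, thin lines for the mean of 2 arrays, orange ticks for the 95th percentile of olfactory receptor probe sets on that array and black ticks for the array floor. The H3.Y arrays of all 7 genes lie above the other 4 arrays and above the orange ticks, and PKIA alone lies above those ticks on all 6 arrays.

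Over the 7 genes, the difference between H3.Y and luciferase siRNA ran from 2.08 to 4.68 log2 units with a median of 2.73, where the median over all probe sets was 0.02. All 7 were called higher at an adjusted p under 0.05 (limma with Benjamini-Hochberg adjustment over all probe sets), against 0.0841% of all probe sets called higher, and both H3.Y arrays lay above both luciferase arrays in all 7, as in 21.7% of all probe sets, with 0.195% called lower. The genes were chosen on this difference, so these counts describe the choice. Between combined and luciferase siRNA the differences ran from -0.83 to 1.02 with a median of -0.05, 3 above 0 and 4 below. Of the 7, 0 were called in that comparison, where 1.84% of all probe sets were (0.859% higher and 0.985% lower). Both combined arrays lay above both luciferase arrays for ZP4, SPINK1 and HCAR3 (23.4% of all probe sets), both lay below for PNLIPRP3 and PKIA (24%), and the arrays of LRFN5 and PAX8-AS1 overlapped. Both comparisons share the luciferase arrays. Between H3.Y and combined siRNA the differences ran from 2.06 to 4.05 with a median of 2.61, and all 7 were called higher, against 1.92% of all probe sets (2.74% were called lower). Both H3.Y arrays lay above both combined arrays in all 7, as in 25.4% of all probe sets. The choice also used the difference between combined and luciferase siRNA, and together they fix that between H3.Y and combined siRNA. The counts of these comparisons thus describe the choice too.

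The calls against luciferase rested on the arrays in the fit. A fit of only the 4 H3.Y and luciferase arrays called 0 of the 7, and 0 were called when H3.Y replicate 1, either luciferase array or either combined array was left out, against 7 of 7 without H3.Y replicate 2. The calls against combined siRNA held for all 7 in the fit of 4 arrays and without any single H3.Y or luciferase array, but fell to 0 without combined replicate 1 and to 1 (PKIA) without combined replicate 2.

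Measured from the array floor, the median of the 7 genes was lower in both other groups, with PKIA above the array median on all 6 arrays. After H3.Y siRNA they stood 3.28 to 7.53 log2 units above the floor of their array, after combined siRNA 1.42 to 3.61, and after luciferase siRNA 1.21 to 4.55. The median of the 7 distances was 4.88 after H3.Y siRNA, 2.13 after combined siRNA and 2.18 after luciferase siRNA. In rank, the genes took places from 50.5% to 93.3% of all probe sets on the H3.Y arrays, from 23.3% to 53.3% on the combined arrays, and from 20.7% to 65.9% on the luciferase arrays. ZP4 ranked above 91.8% and 81% of probe sets on the H3.Y arrays, 37.5% and 46.9% on the combined arrays, and 27.6% and 28.5% on the luciferase arrays. HCAR3 ranked at 55.2% and 50.5% on the H3.Y arrays, 23.3% and 25.1% on the combined arrays, and 21.7% and 20.7% on the luciferase arrays.

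Against the olfactory receptor mark, all 7 genes exceeded the 95th percentile on both H3.Y arrays, with HCAR3 closest to it at 0.91 and 0.61 log2 units above. On the combined arrays 5 of the 7 were below it on both arrays, ZP4 was 0.48 below it on replicate 1 and 0.29 above it on replicate 2, and PKIA was above it on both. On the luciferase arrays 5 of the 7 were below it on both arrays, LRFN5 was 0.17 above on replicate 1 and 0.03 below on replicate 2, and PKIA was above it on both.

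Replicate 1 of H3.Y siRNA read higher than replicate 2 in all 7 genes, by 0.30 log2 units for HCAR3 and by 1.41 for ZP4. In the other groups the order was mixed, with replicate 1 higher in 2 of 7 genes after combined siRNA and in 4 of 7 after luciferase siRNA. The increase over the luciferase mean on replicate 2 was 0.70 to 0.88 of that on replicate 1, with a median of 0.76. LRFN5 had the lowest share (1.71 against 2.45 log2 units) and HCAR3 the highest (2.15 against 2.45). Of the 21 other probe sets called higher after H3.Y siRNA, 19 stood further from luciferase on replicate 1, with a median share of 0.84. Of the 65 called lower, 44 did so, with a median share of 0.94, and of all probe sets 54.2%. The larger increase on replicate 1 was therefore seen in other probe sets called higher as well. Some of these 21 gave identical values on every array, so the 19 of 21 count some readings more than once.

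**Figure D2:**
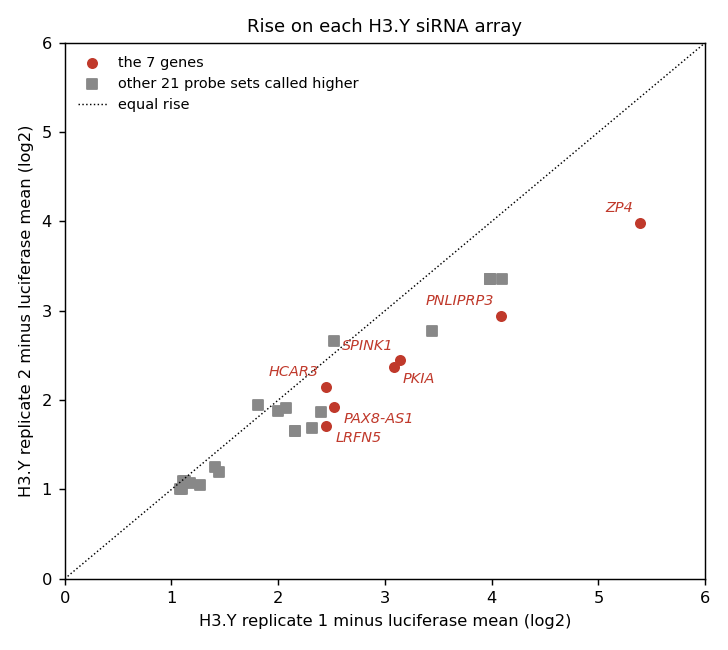
Increase over the mean of the luciferase arrays (log2 units) on H3.Y replicate 1 (horizontal axis) and on H3.Y replicate 2 (vertical axis), with red circles for the 7 genes, grey squares for the 21 other probe sets called higher and a dotted line where both would be equal. All 7 genes fall below the line, from ZP4 at 5.39 and 3.98 to LRFN5 at 2.45 and 1.71.

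The 7 genes were not the whole set with this behaviour. Of the 28 probe sets called higher after H3.Y siRNA, 23 were called higher against combined siRNA as well and were not called between combined and luciferase siRNA, and 16 of those 23 belong to no gene of the 7. The 16 include identical readings from probe sets that share the symbols CCL3, CCL3L1 and CCL3L3, or DEFB105A and DEFB105B. They thus hold fewer than 16 separate readings. LRFN5 had the smallest fitted increase among the 7, at 2.08 log2 units, and next below it among the largest named increases was FBXO32, a ubiquitin ligase subunit, at 2.01 ± 0.24. FBXO32 read 7.56 and 6.93 after H3.Y siRNA, 7.48 and 7.64 after combined siRNA, and 5.07 and 5.41 after luciferase siRNA, and so was high in both knockdowns. The chemokine CCL3 read 11.53 and 10.79 after H3.Y siRNA, 8.14 and 8.29 after combined siRNA, and 7.41 and 7.45 after luciferase siRNA. The collagenase MMP1 read 11.61 and 10.94 after H3.Y siRNA, 6.67 and 7.06 after combined siRNA, and 8.07 and 8.27 after luciferase siRNA. CCL3 and MMP1 were thus also highest on the H3.Y arrays, CCL3 with combined arrays above luciferase as in ZP4, and MMP1 with combined arrays below luciferase as in PKIA and PNLIPRP3.

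**Figure D3:**
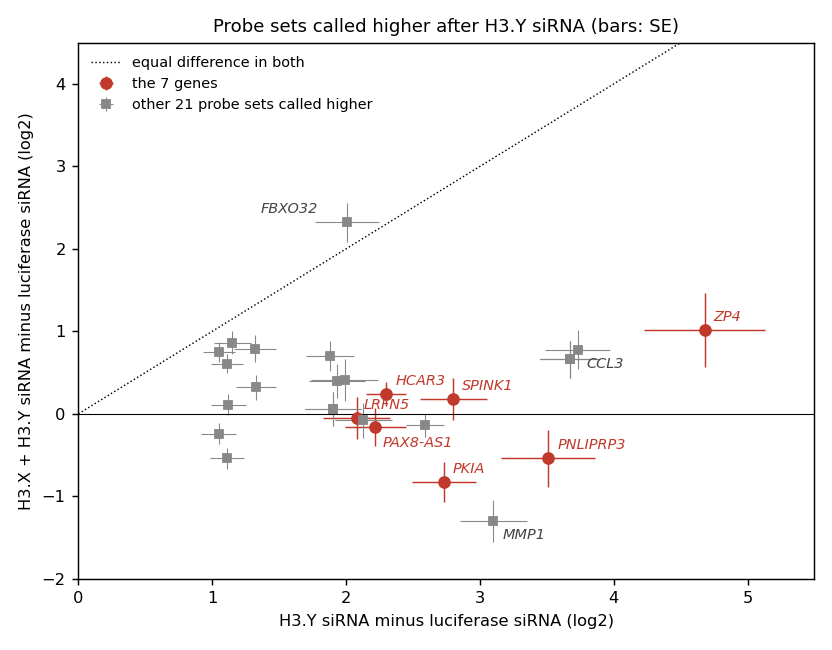
The 28 probe sets called higher after H3.Y siRNA, by their difference from luciferase siRNA after H3.Y siRNA (horizontal axis) and after combined siRNA (vertical axis), in log2 units with SE bars. The 7 genes, in red, lie between -0.83 and 1.02 on the vertical axis, far below the dotted line of equal differences, while FBXO32 lies slightly above it, at 2.01 and 2.32. Both axes share the luciferase arrays.

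Relatives and partners of the 7 genes were listed by family or pathway and tested in the same fit. Of the egg coat glycoproteins, ZP3 differed between H3.Y and luciferase siRNA by 0.51 ± 0.24 log2 units and ZP1 by 0.21 ± 0.21, and 0 of 3 passed. Of 11 measured genes of the lipase family, 0 passed, with lipoprotein lipase (LPL) at -0.66 ± 0.19 and the membrane lipase LIPH at -0.45 ± 0.15. Against combined siRNA both were lower after H3.Y siRNA, LPL at -0.97 ± 0.19 (limma adjusted p = 0.047) and LIPH at -1.70 ± 0.15 (limma adjusted p = 0.0069), the opposite direction to PNLIPRP3. LIPH was also higher after combined than after luciferase siRNA, by 1.25 ± 0.15 (limma adjusted p = 0.023). The direct relatives PNLIPRP1 and PNLIPRP2, which lie next to PNLIPRP3, gave -0.05 and -0.13 between H3.Y and luciferase siRNA. Of 8 other SPINK and trypsinogen genes, 0 passed, all between -0.16 for SPINK6 and 0.18 for SPINK4. The median of these 3 families was 0.21, -0.03 and 0.10 log2 units, against 0.02 for all probe sets, of which 0.279% were called in either direction.

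Protein kinase A and its targets were read because PKIA blocks that kinase. Among 9 further inhibitor and subunit genes 0 passed between H3.Y and luciferase siRNA. The regulatory subunit PRKAR2B read 6.69 and 7.08 after H3.Y siRNA, 6.85 and 6.83 after combined siRNA, and 7.87 and 7.93 after luciferase siRNA. That is a difference of -1.01 ± 0.16 log2 units after H3.Y siRNA (limma adjusted p = 0.081) and a fall in the combined siRNA that passed (-1.06 ± 0.16, limma adjusted p = 0.038), so PRKAR2B was low in both knockdowns, unlike PKIA. PKIG, a relative of PKIA, gave 0.74 ± 0.19 (limma adjusted p = 0.17). Of 12 measured genes listed as targets or partners of CREB, a factor that the kinase activates, 0 passed after H3.Y siRNA, with a median of -0.08. The immediate early gene FOS read 7.64 and 7.34 after H3.Y siRNA, 9.21 and 8.08 after combined siRNA, and 10.14 and 8.58 after luciferase siRNA. Its replicates lay far apart in the last 2 groups, and the difference of -1.87 ± 0.56 between H3.Y and luciferase siRNA did not pass (limma adjusted p = 0.22). DUSP1, a phosphatase of MAP kinases, gave -0.80 ± 0.28 (limma adjusted p = 0.28). Against combined siRNA 1 of the 12 passed, CREM, which was higher after H3.Y siRNA by 0.75 ± 0.15 (limma adjusted p = 0.042). CREM gave 0.31 ± 0.15 against luciferase siRNA, which did not pass.

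HCAR2, the niacin receptor, lies 11.4 kb from HCAR3 and is a near-identical copy, so the probe sets of the pair may read each other's transcripts. It read 6.44 and 5.80 after H3.Y siRNA, 4.65 and 4.00 after combined siRNA, and 4.24 and 4.32 after luciferase siRNA. Its H3.Y arrays were above all others, by 1.84 ± 0.28 log2 units over luciferase siRNA (limma adjusted p = 0.072, not past the threshold, but past it without H3.Y replicate 2) and by 1.79 ± 0.28 over combined siRNA (limma adjusted p = 0.026). HCAR1, the lactate receptor on the other side of HCAR3 at 9.26 kb, gave 0.09 ± 0.19 against luciferase siRNA. OXER1, another receptor for fatty acid derivatives, gave -0.29 ± 0.17.

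Of 10 measured LRFN relatives and synaptic partners 0 passed after H3.Y siRNA. The receptor phosphatase PTPRF, a partner of this family at synapses, gave -0.57 ± 0.14 (limma adjusted p = 0.16), and the scaffold protein DLG1 gave -0.37 ± 0.13 (limma adjusted p = 0.26). Against combined siRNA PTPRF alone of this list passed, at -0.79 ± 0.14 (limma adjusted p = 0.035), the opposite direction to LRFN5. PAX8, which PAX8-AS1 overlaps, read 5.88 and 5.70 after H3.Y siRNA, 5.35 and 5.21 after combined siRNA, and 5.53 and 5.27 after luciferase siRNA. The PAX8 difference from luciferase siRNA was 0.39 ± 0.15 log2 units (limma adjusted p = 0.34), small beside the 2.22 of its antisense RNA. Whether either probe set also reads the other strand was not tested. The 6 measured genes of the list of PAX8, its targets and its partners ran from -0.17 (NKX2-1, a thyroid and lung transcription factor) to 0.39 (PAX8), and 0 passed.

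Markers of the tissues in which the 7 genes are best known did not pass in this comparison. Of 10 oocyte and germ line markers 0 passed, all 10 stayed below the 95th percentile of olfactory receptors on all 6 arrays, and FIGLA, which drives the egg coat genes in oocytes, gave 0.46 ± 0.12 (limma adjusted p = 0.18) and the oocyte growth factor GDF9 0.45 ± 0.19. The log2 sum of the linear levels of that list was 6.69 to 6.72 after H3.Y siRNA, 6.44 to 6.63 after combined siRNA and 6.60 to 6.64 after luciferase siRNA. Of 9 pancreatic acinar markers 0 passed, with differences from -0.20 (CELA3A) to 0.27 (CELA2A), both elastases, 7 of them below the mark on all arrays and sums of 7.46 to 7.49 after H3.Y siRNA, 7.46 to 7.61 after combined siRNA and 7.39 to 7.67 after luciferase siRNA. Of 9 neuronal markers 0 passed, the synaptic protein SNAP25 giving -0.50 ± 0.14 (limma adjusted p = 0.19), with sums of 9.10 to 9.44 after H3.Y siRNA, 9.77 to 9.87 after combined siRNA and 9.28 to 9.59 after luciferase siRNA. Of 9 blood and myeloid markers 0 passed, with the lysosomal protein CD68 at 0.95 ± 0.25 (limma adjusted p = 0.18), the Fc receptor FCGR3A at -0.22 and the pan-leukocyte marker PTPRC at 2.29 or lower on all 6 arrays. Between H3.Y and combined siRNA, in which 4.67% of all probe sets were called, CD68 was higher by 1.48 ± 0.25 (limma adjusted p = 0.031) and the synaptic vesicle protein SYP by 0.82 ± 0.16 (limma adjusted p = 0.042). The neuronal growth protein STMN2 was lower there, at -1.41 ± 0.25 (limma adjusted p = 0.034), and it was higher after combined than after luciferase siRNA by 1.61 ± 0.25 (limma adjusted p = 0.038). The sums of the blood list were 9.50 to 9.88 after H3.Y siRNA, 8.35 to 8.85 after combined siRNA and 8.78 to 9.03 after luciferase siRNA, and the part of these levels in the results was not tested.

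Genes of the acute phase and of interleukin responses were read because SPINK1 is one of them. Of 17 measured, CCL3 alone passed after H3.Y siRNA, higher by 3.73 ± 0.24 log2 units (limma adjusted p = 0.014), a result known when the list was written and not called in a fit of only the 4 H3.Y and luciferase arrays. The list's median was 0.18, and 0.37 between combined and luciferase siRNA. Other genes of the list had large differences that did not pass. The chemokine CCL20 read 8.59 and 6.90 after H3.Y siRNA, 5.92 and 6.12 after combined siRNA, and 5.83 and 5.99 after luciferase siRNA. Its difference from luciferase siRNA of 1.84 ± 0.49 log2 units did not pass (limma adjusted p = 0.18) but did without H3.Y replicate 2. The serum amyloid gene SAA2 gave 1.48 ± 0.44 on 1 of its 2 probe sets and 0.34 ± 0.22 on the other, and SAA1 gave 1.07 ± 0.49. Both also read higher after combined than after luciferase siRNA, and did not pass there either. SAA2 gave 1.85 ± 0.44 and 0.39 ± 0.22 in that comparison, and SAA1 gave 1.37 ± 0.49. Between H3.Y and luciferase siRNA the cytokine IL1B gave 0.56 ± 0.17, and the chemokine CCL2 gave -0.95 ± 0.19 (limma adjusted p = 0.11). Interleukin 6 gave -0.05 and the interleukin 6 target SOCS3 0.12. Between H3.Y and combined siRNA CCL3 was higher by 2.95 ± 0.24 (limma adjusted p = 0.0058). CCL2 was lower there, at -1.43 ± 0.19 (limma adjusted p = 0.017). In all, 121 probe sets of these 13 lists held 1 called between H3.Y and luciferase siRNA, against 0.279% of all probe sets, and 22 with an unadjusted p under 0.05, against 13.9% of all probe sets.

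The genomic neighbours of the 7 genes did not pass either. The 2 nearest measured genes on each side of each gene made 28 genes on 30 probe sets. Some lay far away, with all neighbours of LRFN5 at 2170 to 2990 kb. On 1 side, those of PKIA lay at 1520 and 1650 kb and those of ZP4 at 1500 and 2200 kb. There the neighbours do not read the region close to the gene. Of the 30 probe sets, 0 were called between H3.Y and luciferase siRNA by limma, also with a trended and robust variance, and 8 had an unadjusted p under 0.05. Over all probe sets these shares were 0.279% and 13.9%, so a count of 0 among 30 is near the background. The 8 among 30 are a larger share than 13.9%, and this excess was not tested. Their differences ran from -0.93 to 1.84 log2 units with a median of -0.05, and the highest was that of HCAR2. Next came GFRA1, a receptor for glial cell line-derived growth factor 153 kb from PNLIPRP3, at 0.80 ± 0.18 (limma adjusted p = 0.15). LOC100130331, a transcribed pseudogene that overlaps ZP4, read 6.72 and 6.81 after H3.Y siRNA, 6.79 and 7.0 after combined siRNA and 7.15 and 6.93 after luciferase siRNA, so it did not share the increase of ZP4. Between H3.Y and combined siRNA 4 of the 30 probe sets were called, against 4.67% of all probe sets called in either direction. HCAR2 and GFRA1 were higher. CHRM3, a muscarinic receptor gene 1500 kb from ZP4, and 1 of the 2 probe sets of SLC35F5, 436 kb from PAX8-AS1, were lower. Both were higher after combined than after luciferase siRNA, CHRM3 by 1.76 ± 0.18 (limma adjusted p = 0.017) and SLC35F5 by 1.29 ± 0.21 (limma adjusted p = 0.043). Between H3.Y and luciferase siRNA they gave -0.06 and 0.19.

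**Figure D4:**
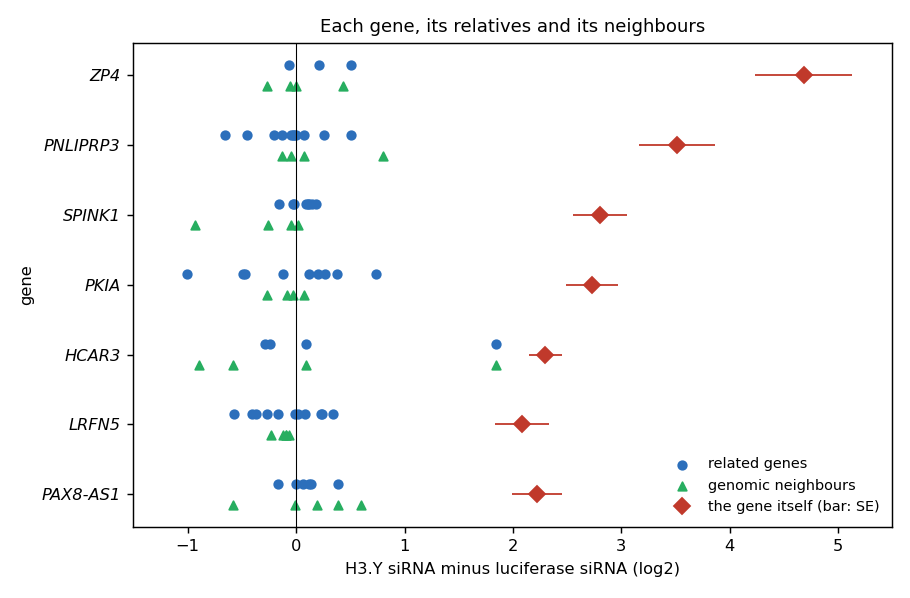
Difference between H3.Y and luciferase siRNA (log2 units, horizontal axis) for each of the 7 genes (red diamonds with SE bars), the genes of its family or pathway list (blue circles) and its nearest measured neighbours (green triangles), 1 row per gene. HCAR2 at 1.84, a relative and neighbour of HCAR3, is drawn as both and is the only relative or neighbour above 1, while the 7 genes lie between 2.08 and 4.68.

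The 7 profiles over the 6 arrays were alike. Each correlated with the mean profile of the other 6 at r between 0.961 (ZP4) and 0.996 (LRFN5), a likeness that the choice of genes builds in. Among 146 other named genes with an increase of at least 1 log2 unit after H3.Y siRNA, the 8 whose profile was most like the mean of the 7 had r between 0.981 and 0.988 over the 6 arrays. In falling order of r they were SPATS1, CLEC3A, FNIP2, PREX1, ST3GAL6, CLEC1A, DCLK2 and PLEK. CLEC1A, a lectin receptor, read 6.75 and 5.40 after H3.Y siRNA, 3.78 and 3.62 after combined siRNA, and 3.57 and 3.64 after luciferase siRNA. FNIP2, a folliculin partner, read 8.0 and 7.34 after H3.Y siRNA, 6.34 and 6.15 after combined siRNA, and 6.35 and 6.32 after luciferase siRNA. ST3GAL6, a sialyltransferase, read 7.75 and 6.76 after H3.Y siRNA, 5.16 and 5.43 after combined siRNA, and 5.40 and 5.54 after luciferase siRNA. FNIP2 and ST3GAL6 were thus above the olfactory receptor mark in all 3 groups, and CLEC1A only on the H3.Y arrays. Against luciferase siRNA, CLEC3A alone of the 8 was called (limma adjusted p = 0.043), and all 8 were called higher against combined siRNA. These profiles share the same 6 arrays, so r is a description.

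**Figure D5:**
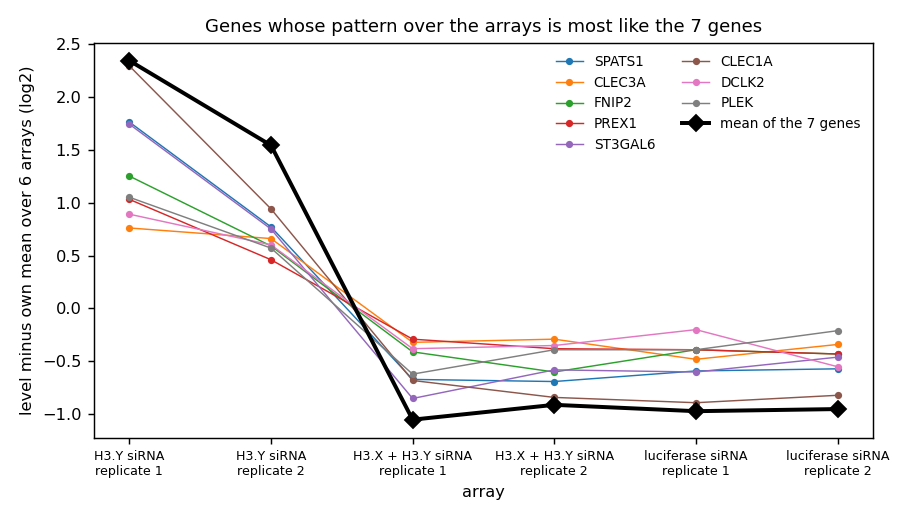
Level of the 8 genes most like the 7 (coloured lines) and the mean of the 7 (black line) on each array, each as log2 units from its own mean over the 6 arrays, with the H3.Y arrays left and lines drawn only to guide the eye. Both H3.Y arrays are highest in every line with replicate 1 above replicate 2, and the combined and luciferase arrays lie below 0.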

How the data were processed

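Each of the 6 arrays gave log2 expression values per probe set. Per the submitters' processing notes the authors used oligo, a Bioconductor package, on the scans, and its version and settings are not stated in the labels. The deposited values were taken as log2 from their range, and 0 value columns were left unused. Probe sets were named from the platform annotation, with symbols updated by Entrez ID through RefSeq (GRCh38.p14). Of 33297 probe sets, 19460 had exactly 1 symbol.

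Groups were compared with limma 3.58.1 in R 4.3.3 on all 6 arrays with 1 mean per group, two-sided, with Benjamini-Hochberg adjustment over all probe sets and a call at an adjusted p under 0.05 (3 residual and 3.43 prior degrees of freedom). The fit was tested on simulated data. The genes, lists and motifs were chosen with earlier results of these data known. Named besides the 7 genes were CCL3, MMP1 and FBXO32, the called members of each list or otherwise up to 2 with the smallest p, the neighbour with the smallest p, and the 8 most similar profiles. Other genes named (VIM, PNLIPRP1, PNLIPRP2, HCAR1, GFRA1, LOC100130331, CHRM3, SLC35F5, PTPRC, SYP, STMN2, CDH2, CREM, CCL2, CCL20, SAA1, SAA2, IL1B, IL6, SOCS3) were added after their values were seen. Alternatives covered the arrays in the fit, a replicate block, 2 normalizations, a filter on dim probe sets, the variance model and the floor percentile.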

Additional observations from a re-analysis of the deposited data

How the results depend on the processing

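Counts of calls moved far more than differences. Between H3.Y and luciferase siRNA, limma called 93 probe sets, 0 with only the 4 arrays compared (3709 at an unadjusted p under 0.05), 540 among probe sets above the median level (where 3 of the 7 genes were tested and called) and 209 with a trended and robust variance, and from 0 to 629 with 1 array left out (a lone array is then assumed to vary like the others). Between combined and luciferase siRNA, 614 became 1442 above the median level and 924 with a trended and robust variance, and 0 to 644 with 1 array left out. Between H3.Y and combined siRNA, 1554 became 448 with only the 4 arrays compared and 2579 above the median level, and 12 to 1641 with 1 array left out. The 1 call in the related lists became 0 with only the 4 arrays compared, 3 above the median level (CCL3, CCL2 and PRKAR2B), and 0 to 4 with 1 array left out. The 0 calls among neighbours became 1 (HCAR2) without H3.Y replicate 2 and stayed 0 in the other alternatives run. Leaving out 1 array of the group not compared gave the same result as only the 4 arrays compared, since a lone array adds nothing to the estimated spread. The cause of the other moves was not tested.

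The labels give same-numbered arrays only a number in common and do not say whether they share a culture, day or batch. Their deviations from the group means correlated at 0.12 to 0.28 between groups, and with a replicate block 68, 750 and 1778 probe sets were called in the 3 comparisons, PAX8-AS1 losing its call against luciferase siRNA.

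The median difference of the 7 genes from luciferase siRNA after H3.Y siRNA was 2.37 to 3.08 with 1 array left out, and that between H3.Y and combined siRNA 2.26 to 2.97. Each gene stayed above 0 in both comparisons under renormalization and with each array left out, from 1.71 to 5.39 and from 1.76 to 4.63 log2 units. Between combined and luciferase siRNA the median ran from -0.15 to 0.02, and 54 of 56 single values kept their sign. The median distance from the floor in luciferase cells was 2.55 with the floor at the 1st percentile and 1.79 at the 10th, against 2.18.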
